A study of Mus musculus with 14 samples.

Results

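The genes of 8 liver-secreted proteins were followed across liver arrays of mice fed krill powder or a control diet: the plasma carriers Alb, Ttr and Rbp4, the fetuins Ahsg and Fetub, and the hepatokines Fgf21, Angptl4 and Lect2. Every probe set that the platform's gene table lists with exactly 1 symbol, and that symbol one of these 8, was taken. This gave 12 probe sets for the 8 genes, of 34945 single-gene probe sets for 18193 genes on the array. Ttr had 4 probe sets, Angptl4 had 2, and the other genes had 1 each. Of the 12 probe sets, 11 were in the brighter 50% of the array by mean signal and were tested. The second Angptl4 probe set was below that limit.

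The samples were livers of 14 male CBA/J mice, 7 per diet, each hybridised alone to an Affymetrix array. All mice had reached the laboratory at 6 weeks of age, lived 1 to a cage and received 84 kcal per week of food built on the AIN93M formula. The control group stayed on the control diet, and the krill group ate a diet with a krill powder extract from 2 months of age; livers were taken at 5 months, after 3 months on the diets. Both diets held the same total protein and total lipid but differed in amino acids and fatty acids, so the groups differ in more than 1 dietary component. No mouse carried an engineered allele.

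The hepatocyte makes most of the protein in plasma. Albumin (Alb) carries fatty acids, bilirubin and hormones and holds plasma volume; transthyretin (Ttr) carries thyroxine and binds retinol-binding protein 4 (Rbp4), which takes retinol from liver stores to other tissues. Fetuin-A (Ahsg) binds calcium phosphate in plasma and inhibits the insulin receptor kinase, and fetuin-B (Fetub), its close relative, inhibits the ovastacin and meprin proteases. Fgf21 is a fasting and amino-acid-stress hormone that acts through Fgfr1 and its co-receptor Klb, Angptl4 inhibits lipoprotein lipase, and Lect2 is a chemotactic factor that liver releases with overfeeding.

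The promoters of 3 of these genes are shown for reference. Alb is among the brightest signals of the array, and Ahsg and Fetub are next to each other on chromosome 16 yet differed in their change. Whether promoter sequence had a part in any change was not tested. Each line gives the 250 bases before the start listed in RefSeq for GRCm38.p6, read in the direction of transcription. Alb lies at chr5:90460620-90460869, Ahsg at chr16:22891765-22892014 and Fetub at chr16:22918132-22918381, all on the + strand. Capitals mark matches on either strand. The letters searched were TATAAA for the box that sets the start, CCAAT for the box of that name, GTTAATNAT for the hepatocyte factor HNF1, TGTTTNC for the core of the FOXA liver factors, CACGTG for the E box and AGGTCA for nuclear receptors.
Alb: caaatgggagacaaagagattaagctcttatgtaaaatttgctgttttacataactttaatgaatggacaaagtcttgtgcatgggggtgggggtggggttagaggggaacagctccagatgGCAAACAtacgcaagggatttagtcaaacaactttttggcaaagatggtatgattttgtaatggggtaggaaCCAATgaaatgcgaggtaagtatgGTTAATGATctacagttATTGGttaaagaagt
Ahsg: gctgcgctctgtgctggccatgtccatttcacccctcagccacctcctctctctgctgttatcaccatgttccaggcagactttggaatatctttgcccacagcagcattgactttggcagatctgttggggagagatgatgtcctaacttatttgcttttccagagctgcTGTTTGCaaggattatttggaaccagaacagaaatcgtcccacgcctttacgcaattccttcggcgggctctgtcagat
Fetub: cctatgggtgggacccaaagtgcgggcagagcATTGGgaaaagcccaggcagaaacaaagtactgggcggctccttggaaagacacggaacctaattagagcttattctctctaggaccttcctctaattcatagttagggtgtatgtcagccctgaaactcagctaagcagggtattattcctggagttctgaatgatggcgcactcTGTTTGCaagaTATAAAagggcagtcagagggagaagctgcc
The Alb window held the HNF1 letters 32 to 24 bases before the start, between CCAAT matches, and a FOXA core on the opposite strand; GTTAATNAT occurred in 0.737% of the 32851 promoter windows of the table and TGTTTNC in 17.8%. The Ahsg and Fetub windows shared the word CTGTTTGCAAG, which begins 80 bases before the Ahsg start and 43 before the Fetub start and contains the FOXA core. That word was picked as the longest stretch common to these windows, so its being shared is not a test result. It was found in 13 of the 32851 windows (0.0396%), the Ahsg and Fetub windows included. At the Fetub start shown there was a TATA match 31 to 26 bases before it; a second listed Fetub start had a FOXA core but no TATA match, and neither did the Ahsg window have one. TATAAA was in 12.4% of windows, CCAAT in 33.9%, CACGTG in 6.02% and AGGTCA in 14.02%. A match describes letters only, and binding was not measured. Promoters were looked up for the genes other than Ttr and were found for 6 of them. No sequence is shown for Ttr.

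Some properties of the arrays moved with the diet and bear on the bright genes. The index of 3' over 5' signal, taken from the actin and pyruvate carboxylase control pairs, was 1.85 ± 0.29 log2 in control arrays and 2.84 ± 0.28 in krill arrays (SD, n = 7 each), with no overlap (exact permutation p = 0.000583, the smallest that 3432 assignments allow, adjusted p = 0.00175). Hybridisation spike-ins, RNAs added in a fixed amount, were brighter in the krill arrays by 0.79 log2 (exact permutation p = 0.0128, two-sided; adjusted p = 0.0128, both adjusted over 3 measures). Krill replicates 2, 4, 5 and 7 had spike-ins above every control array, and results are therefore also given without these 4 arrays. Hepatocyte markers summed to between 185459 and 252784 in control arrays and between 235108 and 453500 in krill arrays, so the liver label held. The genes in that sum did not move together. On average Apoa1 went from 85526 to 150636, Tdo2 from 42209 to 67768 and Cps1 from 37717 to 41621. Apob stayed near level (47986 to 47238) and Tat was lower (10311 to 3640). All 4 bile duct genes, both lymphocyte genes and Adipoq had group means at or below 213, and the highest was Epcam. The sums of 5 Kupffer cell genes ranged from 4712 to 6705 in control and from 6674 to 13364 in krill arrays. Cd5l made most of the rise (2025 to 4793 on average). Adgre1 (556 to 1140), Clec4f (1641 to 2117) and the dim Marco (54.1 to 152) were also higher, while Vsig4 was lower (1466 to 858). The median over the 5 was the Vsig4 value in control (1466) and the Adgre1 value in krill (1140), so it compares different genes. The sums of 3 pancreas genes ranged from 2668 to 5136 in control and from 6181 to 19302 in krill arrays. Most of the pancreas sum was Cela1, at 4171 and 10943 on average, while Cpa1 was at 6.82 and 21.4. The part of these array and cell differences in the results was not tested, and because the 3'/5' index separates the diets without overlap, array or RNA handling and diet cannot be told apart. In whole liver, fewer hepatocytes and less RNA per hepatocyte cannot be told apart.

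Across all genes, limma called 46.6% of the 19215 probe sets at an adjusted p under 0.05, 19.9% higher and 26.7% lower in krill, and the median log2 change was -0.05. Of the 11 tested probe sets of the 8 genes, 6 passed: 5 were higher, which were Alb and the 4 of Ttr, and 1 was lower, Fetub. Without krill replicates 2, 4, 5 and 7, Fetub alone of the 11 passed, against 31.3% of all probe sets. With arrays scaled on the spike-ins, 4 passed, all lower: Fetub, Ahsg, Rbp4 and Angptl4. That scaling moved the median of all probe sets to -0.83 log2 and called 53.1% of them lower and 2.5% higher, so 4 of 11 is not above its background. With the 3'/5' index as a covariate, none of the 11 and none of the 19215 passed in limma, where 2903 of the 19215 had an unadjusted p under 0.05. Under the deposited scaling, a share of 6 in 11 is near the background of all probe sets, so the count says little about these genes; their separate values follow.

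**Figure D1:**
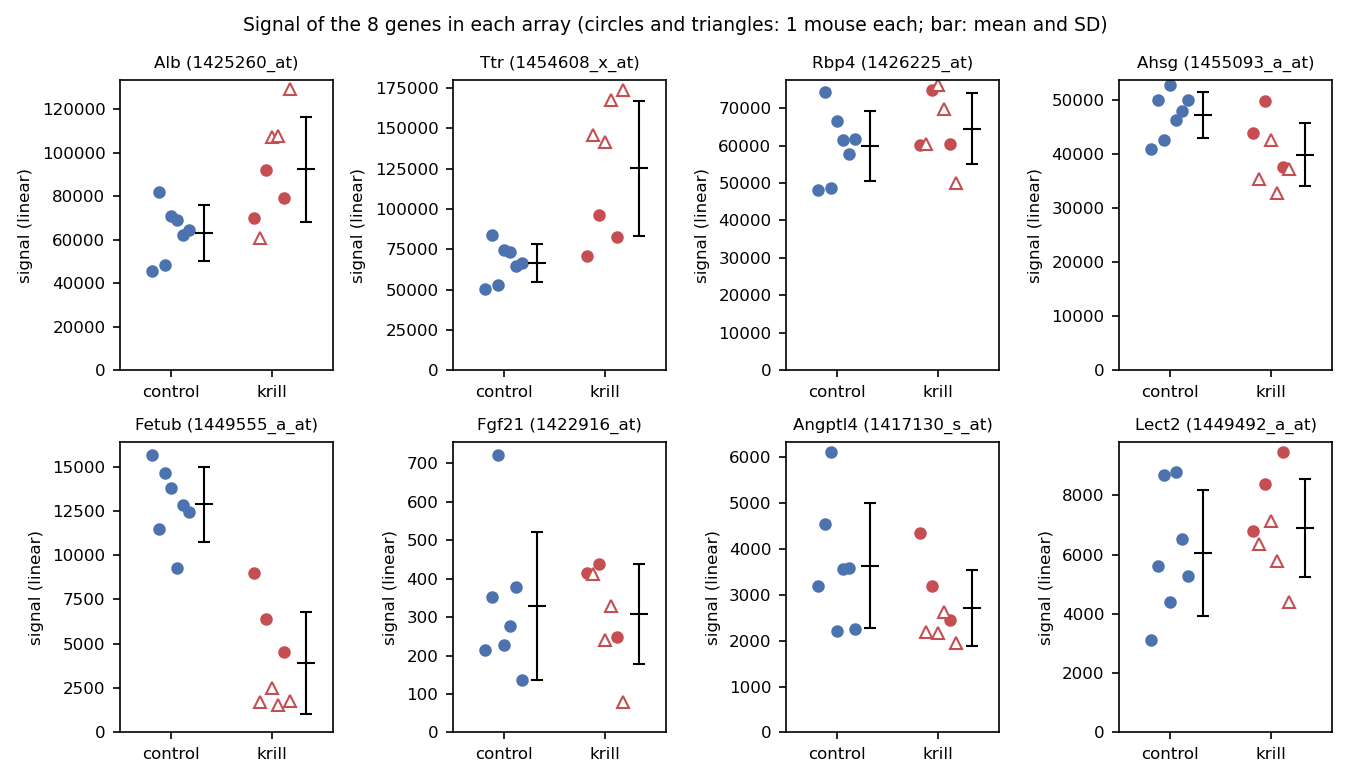
Deposited signal (linear axis from 0) of the brightest probe set of each of the 8 genes in the 7 control and 7 krill arrays; each point is 1 mouse, open triangles are krill replicates 2, 4, 5 and 7, and bars are mean and SD. Fetub is the gene whose krill arrays all lie below all control arrays; the high Ttr values in krill are the 4 triangles.

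Albumin signal was 45619 at the lowest, 64546 at the median and 82071 at the highest in control arrays, and 60906, 92306 and 129330 in krill arrays. Above all control arrays lay 4 krill arrays, and the others overlapped them; the lowest krill value was replicate 2. The means were 63215 ± 12783 and 92469 ± 24079 (SD, n = 7 each). In limma on log2(signal + 16) Alb was 0.53 log2 higher in krill (SE 0.19, 95% interval 0.14 to 0.93, 1.45-fold, adjusted p = 0.0273), but the difference was -0.15 after quantile normalization and -0.26 after scaling on the spike-ins. Without the 4 bright krill arrays it was 0.37 (adjusted p = 0.13), with median centring 0.13 (adjusted p = 0.595), with a covariate for the spike-ins 0.23 and with one for the 3'/5' index 0.62 (limma adjusted p = 0.5 and 0.506). With no signal filter the adjusted p was 0.104. The call was also lost when control replicate 1 or 3 or krill replicate 4, 5 or 7 was left out, with adjusted p between 0.0554 and 0.0642.

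Transthyretin probe sets were among the brightest of each array, which ranks brightness and not transcript number. The probe set 1454608_x_at read 50487, 66370 and 83715 (lowest, median, highest) in control arrays and 70543, 141351 and 173808 in krill arrays. Above all control arrays were 5 krill arrays, and the 4 highest were replicates 2, 4, 5 and 7. Mean signal was 66460 ± 11975 and 125363 ± 41869 (SD, n = 7 each), a log2 difference of 0.86 (SE 0.21, 95% interval 0.42 to 1.30, 1.81-fold, limma adjusted p = 0.00341). The other 3 probe sets, 1451580_a_at, 1455913_x_at and 1459737_s_at, differed by 0.67, 0.79 and 0.81 log2 (adjusted p = 0.00668, 0.00585 and 0.00404). All 4 are listed for the same gene, so they are readings of 1 gene and not independent support. Without krill replicates 2, 4, 5 and 7 the differences were 0.24 to 0.33 log2 and none passed (limma adjusted p from 0.152 to 0.271). With arrays scaled on the spike-ins they were between -0.12 and 0.07, and after quantile normalization between -0.04 and 0.11.

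Retinol-binding protein 4, the plasma partner of transthyretin, read 48011, 61482 and 74316 (lowest, median, highest) in control arrays and 49951, 60491 and 76118 in krill arrays. The groups overlapped almost completely. Mean signal was 59815 ± 9393 and 64536 ± 9449 (SD, n = 7 each), a difference of 0.11 log2 (95% interval -0.20 to 0.43, limma adjusted p = 0.556). The sign depended on the scaling: Rbp4 was lower by limma after quantile normalization (-0.54, adjusted p = 0.00788) and after scaling on the spike-ins (-0.68, adjusted p = 0.0227).

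The brightest probe sets followed the brightest level of their own array. The 20 brightest probe sets outside the 8 genes averaged 16.09 ± 0.25 log2 in control arrays and 16.84 ± 0.46 in krill arrays (SD, n = 7 each; exact permutation p = 0.00466, adjusted p = 0.00699), and the highest signal of an array ran from 72945 to 115814 in control and from 104284 to 225758 in krill. Over the 7 control mice, Alb varied with an SD of 0.30 log2, but its distance to the 20 brightest varied by 0.06; for Ttr 1454608_x_at these were 0.27 and 0.03, and for Rbp4 0.23 and 0.06. The control-to-control spread of these 3 genes was thus mostly shared with other bright probe sets. In krill arrays the distance of Ttr 1454608_x_at hardly moved (-0.09 to 0.02 log2), that of Alb went from -0.17 to -0.39, and that of Rbp4 from -0.23 to -0.88. By position in the array, with 1 the brightest probe set, Ttr 1454608_x_at held places 13 to 22 in control and 5 to 18 in krill arrays. Alb held places 20 to 41 in control arrays and 14 to 218 in krill arrays. Place 218 was krill replicate 2, where Alb was low while Ttr was high. Whether the scanner or the probes had reached their limit was not tested, since saturation flags are not used here. A ceiling could make a true difference in a bright gene look smaller than it was. Because each array was scaled to a common mean, a gene at a ceiling would also move with its array's scaling. A ceiling could therefore also add a difference, and the values given are not lower bounds.

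**Figure D2:**
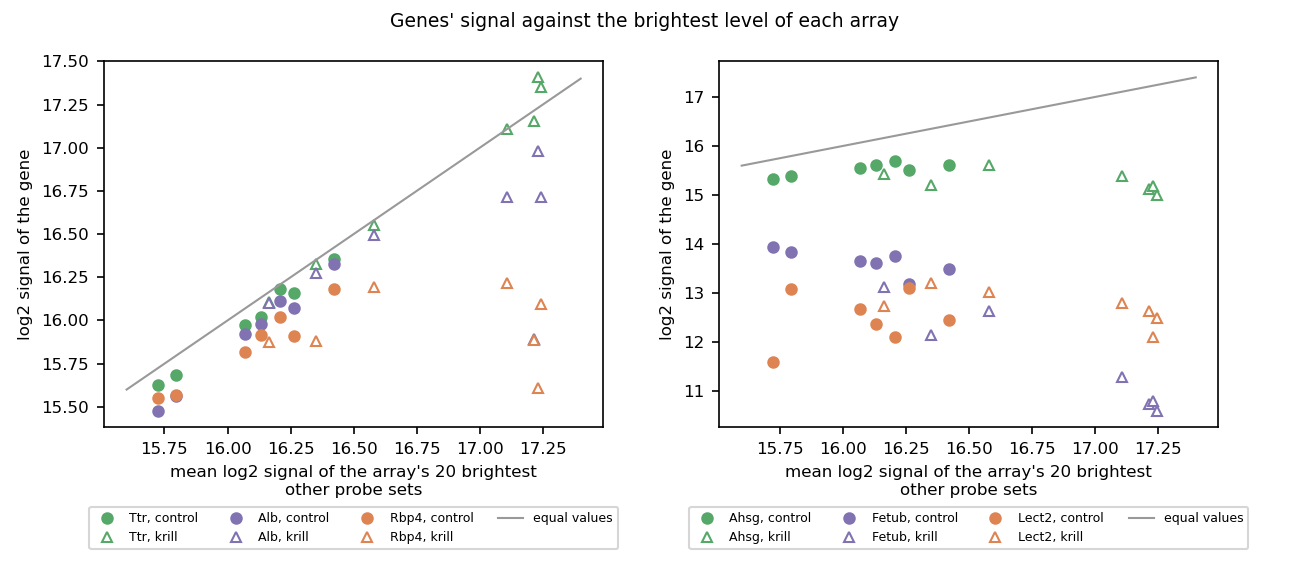
Log2 signal of each gene (vertical axis) against the mean log2 signal of the 20 brightest probe sets outside the 8 genes in the same array (horizontal axis); filled circles are control mice, open triangles krill mice, and the grey line marks equal values. Ttr lies near the line in both diets, Alb and Rbp4 lie near it in control arrays and below it in the brightest krill arrays, and Fetub falls away from it.

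Differences taken within an array do not depend on the factor by which that array was scaled. A set of 3 was tested after the data were seen. Rbp4 minus Ttr was -0.08 ± 0.06 log2 in control and -0.75 ± 0.53 in krill arrays (SD, n = 7 each; exact permutation p = 0.00117, two-sided, adjusted p = 0.00175). Ttr minus Alb was 0.01 ± 0.05 and 0.26 ± 0.44 (exact permutation p = 0.137), and krill replicate 2 stood highest at 1.16. Without the 4 bright krill arrays, Rbp4 minus Ttr differed by -0.16 log2 (exact permutation p = 0.0167 over 120 assignments, adjusted p = 0.025). Ttr minus Alb then had the opposite sign, a difference of -0.08 (exact permutation p = 0.025). The signals of Rbp4 and Ttr therefore differed unequally between the diets in both sets of arrays, while the order of Ttr and Alb turned with the 4 arrays. Whether a ceiling on these bright probe sets had a part in this was not tested. The 3'/5' index was not applied to these differences.

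Fetuin-B fell. Its signal was 9275, 12827 and 15642 (lowest, median, highest) in control arrays and 1552, 2515 and 8978 in krill arrays. Each of the 7 krill values was under the lowest control value; among all tested probe sets 13.7% had groups that did not overlap, and of the 11 tested probe sets of the 8 genes Fetub was the 1 that did. Krill replicates 2, 4, 5 and 7 were the lowest, between 1552 and 2515, and replicates 1, 3 and 6 were at 8978, 6399 and 4554. Means were 12879 ± 2109 and 3928 ± 2862 (SD, n = 7 each), a log2 difference of -2.0 (SE 0.33, 95% interval -2.70 to -1.30, 4.01-fold lower, limma adjusted p = 0.000165). Without those 4 arrays the difference was -0.99 (1.99-fold lower, adjusted p = 0.00231). Scaling on the spike-ins gave -2.79 and quantile normalization -2.09. With the spike-in level as a covariate it was -0.87 (limma adjusted p = 0.0162), and with the 3'/5' index as a covariate -0.58 (adjusted p = 0.715), the only alternative run that ended the call.

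Fetuin-A, the neighbour and relative of fetuin-B, read 40955, 48051 and 52784 (lowest, median, highest) in control and 32773, 37695 and 49927 in krill arrays. Below all control arrays were 4 krill arrays, and the rest overlapped them. The means were 47264 ± 4245 and 39958 ± 5865 (SD, n = 7 each), a difference of -0.25 log2 (95% interval -0.54 to 0.04) that did not pass in limma (adjusted p = 0.142). Ahsg did pass as lower after quantile normalization (-0.85, adjusted p = 0.000294) and after scaling on the spike-ins (-1.04, adjusted p = 0.00363), and its sign turned with the 3'/5' index as a covariate (0.19). In control arrays its SD was 0.13 log2 and that of its distance to the 20 brightest probe sets was 0.16. Unlike for Alb, Ttr and Rbp4, the distance thus varied no less than the signal itself. The lowest Ahsg control values were still in replicates 1 and 3, the control arrays with the lowest brightest level. Within an array, Fetub minus Ahsg was -1.89 ± 0.32 log2 in control and -3.65 ± 0.86 in krill mice (SD, n = 7 each; exact permutation p = 0.00117, two-sided, adjusted p = 0.00175). Without the 4 bright krill arrays the gap still differed, by -0.88 log2 (exact permutation p = 0.0167, adjusted p = 0.025). The mean fall in Fetub signal was thus larger than any in Ahsg signal in both sets of arrays, whatever the factor an array is scaled by. Krill replicate 1, at -2.29, lay within the control range, which reached down to -2.32. Whether a ceiling on the brighter Ahsg made its fall look smaller was not tested.

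Fetub and Ahsg belong to a row of cystatin-family genes on chromosome 16 that also holds Hrg, Kng2 and Kng1, and the row was read in gene order of GRCm38.p6. Hrg, histidine-rich glycoprotein, a plasma protein that binds heparin and zinc, is next to Fetub and went from 26604 ± 5732 to 4790 ± 4550 (SD, n = 7 each). Its change was -2.98 log2 (limma adjusted p = 6.14e-05), and -1.67 without krill replicates 2, 4, 5 and 7; its highest krill value was under its lowest control value. Kng1, kininogen, the source of bradykinin, gave readings that disagreed: 1416676_at was 0.20 log2 higher (adjusted p = 0.196) and 1426045_at was lower (-0.71 log2, adjusted p = 0.000871). The 7 krill values of 1426045_at also lay below all its control values. Of all tested probe sets 13.7% had groups that did not overlap. On the other side, Dnajb11, an endoplasmic reticulum chaperone, changed by -0.29 (adjusted p = 0.296), and the Tbccd1 probe sets by -0.47 and -0.58 (adjusted p = 0.0414 and 0.027). Eif4a2, a translation initiation helicase beyond Kng1, changed by -0.14 (limma adjusted p = 0.578). With all 14 arrays, the falls of over 1 log2 unit among the genes read in this row were those of Fetub and Hrg. Without krill replicates 2, 4, 5 and 7 the Fetub value was -0.99. No probe set was read for Kng2. With the 3'/5' index as a covariate the Hrg value was -0.996 (limma adjusted p = 0.595).

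**Figure D3:**
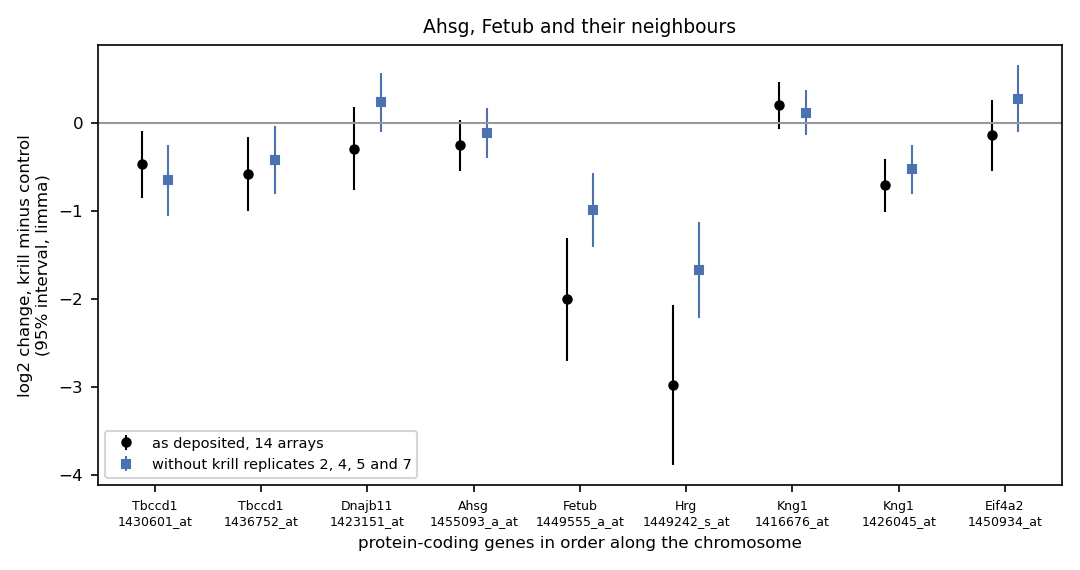
Log2 change (krill minus control, with 95% interval from limma) of each tested probe set of Ahsg, Fetub and the protein-coding genes around them, in gene order and not to scale along the chromosome; black circles use all 14 arrays, blue squares leave out krill replicates 2, 4, 5 and 7. Fetub (-2.0) and Hrg (-2.98) lie furthest below 0 in both.

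Fgf21 was dim and variable. Signal was 135.8, 276 and 723 (lowest, median, highest) in control arrays and 78.5, 328 and 437 in krill arrays, with full overlap apart from krill replicate 7, the lowest of all 14. Means were 330 ± 192 and 309 ± 129 (SD, n = 7 each). The difference of -0.08 log2 had a 95% interval of -0.82 to 0.67 (limma adjusted p = 0.872), so the data allow a change of either sign. Its sign was positive without krill replicate 7 (0.20) and without control replicate 3 (0.13). Klb, the co-receptor that Fgf21 needs, was at 1317 ± 268 and 1237 ± 367 (SD, n = 7 each) and differed by -0.13 log2 (limma adjusted p = 0.613); it was picked out after its value was seen.

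Angptl4, the lipase inhibitor and a fatty-acid-responsive gene, read 2205, 3560 and 6117 (lowest, median, highest) on 1417130_s_at in control arrays and 1948, 2451 and 4348 in krill arrays. Below all control arrays were 3 krill arrays, and the others overlapped. Means were 3638 ± 1363 and 2705 ± 831 (SD, n = 7 each), a difference of -0.39 log2 (95% interval -0.88 to 0.09, limma adjusted p = 0.166). Without the 4 bright krill arrays it was -0.08, and with arrays scaled on the spike-ins it passed at -1.18 (adjusted p = 0.0194). The dim probe set 1453410_at went the other way, from 24.3 ± 22.5 to 81.3 ± 36.1 (SD, n = 7 each). In the fit with no signal filter its log2 difference was 1.37 (limma adjusted p = 0.0148), in a fit that called 30.1% of 34945 probe sets. Its control signals, 2.45 to 63.8, lay below the median signal of every control array (88.5 to 109). Whether they stood above background was not tested, since detection calls are not used here.

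Lect2 read 3102, 5607 and 8791 (lowest, median, highest) in control arrays and 4409, 6779 and 9471 in krill arrays. The groups overlapped, with 1 krill array above all control arrays. Means were 6062 ± 2119 and 6903 ± 1663 (SD, n = 7 each), a difference of 0.23 log2 (95% interval -0.24 to 0.70, limma adjusted p = 0.411). It was 0.50 without the 4 bright krill arrays (adjusted p = 0.166) and -0.56 with arrays scaled on the spike-ins (adjusted p = 0.224). For these 3 signalling proteins no difference passed on the main probe set under the deposited scaling, and the intervals leave room for changes of either sign.

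**Figure D4:**
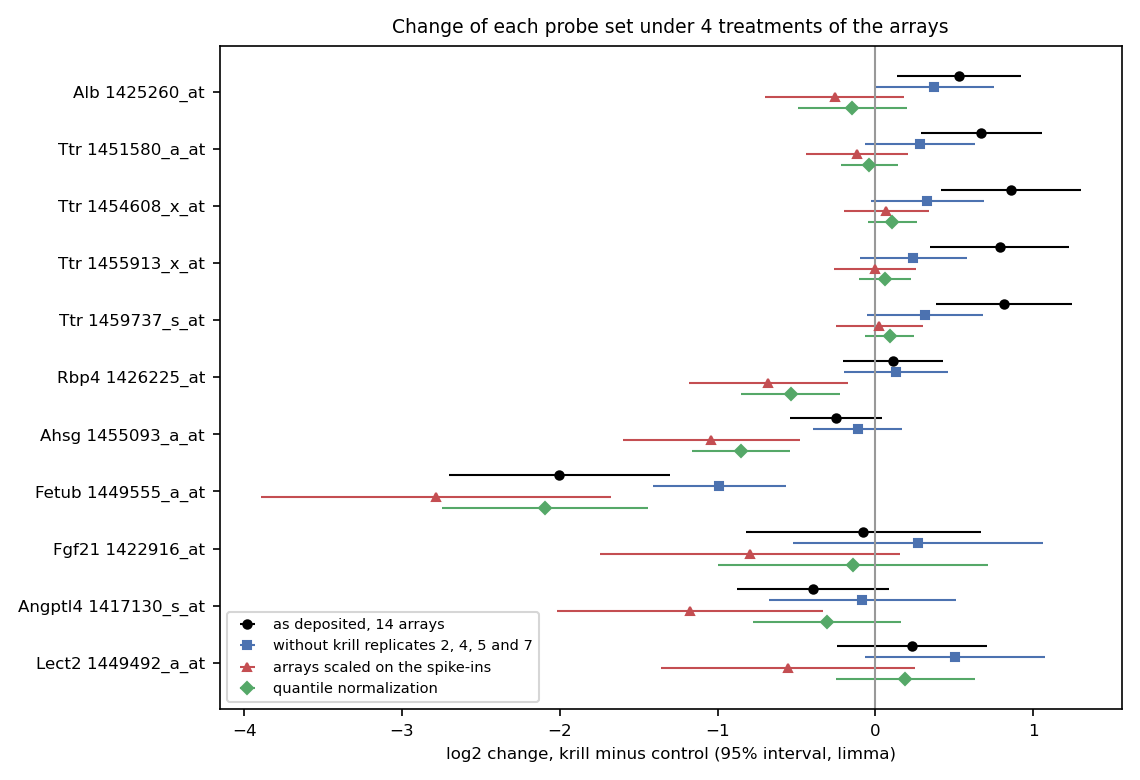
Log2 change (krill minus control, points with 95% intervals from limma) of the 11 tested probe sets under 4 treatments of the arrays, named in the key. Fetub stays below 0 in all 4, the Alb and Ttr rises shrink without the 4 bright krill arrays and lie near or below 0 under spike-in scaling and quantile normalization, and Rbp4 and Ahsg lie below 0 under those scalings.

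Each gene's pattern over the 14 arrays was set against the 19204 other tested probe sets, as the mean absolute difference of centred log2 values. Ttr was nearest to Fabp1, the liver fatty-acid-binding protein, at 0.038 log2, and Alb to Bhmt, betaine-homocysteine methyltransferase, at 0.105. Rbp4 was nearest to Atp5g3, a subunit of ATP synthase, at 0.079 and Ahsg to Anp32e, a histone chaperone, at 0.085. Fetub was nearest to Ifnar2, a chain of the type I interferon receptor, at 0.111. Lect2 was nearest to Spcs1, a signal peptidase subunit, at 0.186, and Angptl4 to Nfkbia, the NF-kappa-B inhibitor, at 0.193. Fgf21 had no close match, its nearest being H2ac19, a histone gene, at 0.314. Over all probe sets compared, the median distance was 0.54 for Alb, 0.61 for Ttr and 1.11 for Fetub. Fabp1 also lay near the top of the signal range, at 68113 ± 11915 and 126739 ± 42791 (SD, n = 7 each).

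Other secreted liver signalling proteins were read from a list of 35 genes, of which 29 were tested on 51 probe sets. By limma 6 probe sets were higher, 27 lower and 18 did not pass, and the median log2 change was -0.62; of all probe sets tested, 19.9% were higher and 26.7% lower, with a median of -0.05. Without krill replicates 2, 4, 5 and 7 the counts were 5 higher and 17 lower with a median of -0.26, against 10.5% and 20.8% of all probe sets and a median of -0.09. With arrays scaled on the spike-ins 0 were higher and 35 of 52 lower, against 2.5% and 53.1% of all probe sets. Igfbp4, a binding protein that restrains insulin-like growth factors, was lower on all 6 of its probe sets, by amounts that differed: the change was -2.61 log2 on 1421991_a_at (adjusted p = 1.38e-05; -1.98 without the 4 bright arrays) and -0.68 on the brightest, 1437405_a_at (limma adjusted p = 0.00378; -0.40 without them). Hgfac, the protease that activates hepatocyte growth factor, changed by -1.91, and Inhbc, an activin chain made in liver, by -1.83 (limma adjusted p = 3.99e-05 and 0.000125); without the 4 bright arrays these were -1.19 and -1.12. Smoc1, a secreted glucose-lowering protein, changed by -1.74 (adjusted p = 0.000227). The largest rises were 1.16 log2 in Enho, the precursor of adropin, on 1 of 3 probe sets, and 0.93 in Dpp4, the incretin-cleaving peptidase, on 1 of 4 (limma adjusted p = 0.00368 and 0.00085).

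Other plasma carriers and abundant secreted proteins were read from 37 genes, 27 of them tested on 46 probe sets; transferrin (Trf) was not among these, since its probe set is listed with several genes. By limma 4 probe sets were higher, 29 lower and 13 did not pass, with a median of -0.67 log2, beside 19.9% higher and 26.7% lower of all probe sets. The counts were 3 and 20 without the 4 bright krill arrays (median -0.40; all probe sets 10.5% and 20.8%). They were 0 and 36 with arrays scaled on the spike-ins (all probe sets 2.5% and 53.1%). Pltp, the phospholipid transfer protein of lipoproteins, changed by -3.15 log2, from 2165 ± 698 to 250 ± 144 (SD, n = 7 each, limma adjusted p = 8.39e-06). Serpina6, the corticosteroid-binding globulin, changed by -2.50 (adjusted p = 0.000209) and by -1.11 without the 4 bright arrays, and Tcn2, which carries vitamin B12, by -1.44 (adjusted p = 0.00036), lower on all 5 probe sets. The largest rises were those of Azgp1, zinc-alpha-2-glycoprotein (0.97, adjusted p = 0.000794), and Hpx, the haem carrier haemopexin (0.90, limma adjusted p = 0.0027). Hpx, at 55458 ± 9268 in control arrays, was also near the top of the signal range and lost its call without the 4 bright arrays (0.35, adjusted p = 0.123); Azgp1 kept it at 0.54 (adjusted p = 0.0314).

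Receptors, proteases and regulators linked to the 8 genes were read from a list of 41, of which 33 were tested on 58 probe sets. By limma 8 probe sets were higher, 29 lower and 21 did not pass, with a median of -0.56 log2, beside 19.9% higher and 26.7% lower of all probe sets. The counts were 2 and 20 without the 4 bright krill arrays (median -0.34); 22 of 58 called there is near the 31.3% of all probe sets. With arrays scaled on the spike-ins they were 0 and 46 of 60, where 2.5% of all probe sets were higher and 53.1% lower. Ppara, the fatty-acid-activated receptor that drives Fgf21 and Angptl4 transcription, was lower on all 3 probe sets, with the largest change on 1449051_at (-2.72, adjusted p = 0.000168), and that value was -1.29 without the 4 bright arrays. Sel1l, an endoplasmic reticulum factor needed for lipase maturation, changed by -2.05 (adjusted p = 3.19e-05) and was lower on all 5. Furin, the protease that cleaves many secreted precursors, changed by -1.61, and Fgfr4, the main fibroblast growth factor receptor of hepatocytes, by -1.59, lower on 2 of 3 probe sets (limma adjusted p = 0.000117 and 0.000201). The largest rises were in dim probe sets: Mep1a, a meprin that fetuin-B inhibits, went from 99.0 ± 54.7 to 244 ± 99.1, and 1 of 2 Insr probe sets from 81.7 ± 36.8 to 218 ± 138 (SD, n = 7 each). Both lost their call without the 4 bright arrays (limma adjusted p = 0.379 and 0.679). In all 3 lists, the 3'/5' index as a covariate left no probe set called by limma, with 6, 5 and 11 at an unadjusted p under 0.05.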

How the data were processed

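Per the labels' protocols, biotinylated cRNA was made from 5 ug of Trizol-extracted total RNA per liver and hybridised to Affymetrix arrays. The deposited table holds linear intensity (signal) per probe set, made with MAS5 per the submitters' processing notes; no version of it is given. Tested on the table, the mean without the lowest and highest 2% of probe sets was 500.0 in every array, so each array was scaled to a common mean and not to a common distribution. Detection calls and saturation flags are not used here.

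Of 45101 probe sets, 64 were controls, 932 had several symbols, 9160 were not listed with one and 34945 had exactly 1; 34741 of these matched the gene table of GRCm38.p6 and 0 symbols changed. Values were analysed as log2(signal + 16), which understates changes of dim genes. The 50% of non-control probe sets with the higher mean were kept (lowest mean 123.5), and 19215 with 1 symbol entered 1 limma fit (limma 3.58.1, R 4.3.3; lmFit, eBayes with trend), krill minus control, 7 mice against 7, no covariate, with Benjamini-Hochberg adjustment over all of them and a threshold of 0.05. Several probe sets of a gene were kept apart. Array measures and within-array differences had two-sided exact permutation tests over the 3432 ways to assign the arrays. The fit was tested on simulated data with independent noise for each probe set. Those data held no differences shared across an array, so the test does not cover the array differences given above. Python 3.11.15, numpy 2.4.6, pandas 2.3.3 and matplotlib 3.10.9 were used for the rest.

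The 8 genes and the 3 lists were chosen with earlier results of these data known. The named genes are the 8, then in each list up to 4 called genes with the smallest p, the 2 largest falls and the 2 largest rises, and for each of the 8 the probe set with the nearest pattern. Alternatives were the pseudocount, quantile normalization, median centring, scaling on 18 spike-in probe sets, the signal filter, 1 value per gene, no trend, array weights, 2 covariates, a replicate block, leaving out each array, and leaving out krill replicates 2, 4, 5 and 7. Scaling on the 20 brightest probe sets outside the 8 genes was chosen after seeing the data. Promoters came from RefSeq for GRCm38.p6.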

Additional observations from a re-analysis of the deposited data

Results flagged for a closer look

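Of the 24 sets of 7 values checked, 12 probe sets in each diet, 1 held an outlying array; chance gives about 1 in 20. Fgf21 in krill replicate 7 was at 78.5, the lowest of its group, and on the log2 scale, on which the check was run, its gap to the next value was 0.637 of the group's range, above Dixon's 95% critical value for 7 samples. On the linear signal the gap was 0.452 of the range, which is below that value. The same array was among the 4 with bright spike-ins.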

How the results depend on the processing

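Of 474 pairs of a result and an alternative, 391 kept their direction and side of the threshold (or a count within 1.5 times), 32 lost the call, 6 gained it, 22 turned sign and 23 counts moved further; where a cause is not given, it was not tested. The Alb change was -0.15 with quantile normalization, -0.26 with spike-in scaling and -0.22 with scaling on the 20 brightest; Rbp4 gave -0.54, -0.68 and -0.64 there, and -0.29 with median centring. Lect2 was -0.17 with median centring, -0.56 with spike-in scaling and -0.52 on the 20 brightest. Ttr 1451580_a_at was -0.039, -0.12 and -0.084 with quantile, spike-in and 20-brightest scaling, and 1455913_x_at -0.0019 with spike-in scaling. With the spike-in level as a covariate Angptl4 was 0.043 and Fgf21 0.46, and with the 3'/5' index Angptl4 was 0.42, Fgf21 1.31 and Ahsg 0.19. Fgf21 was 0.27 without krill replicates 2, 4, 5 and 7, and -0.25 to 0.20 when 1 array was left out. The median change over all tested probe sets was -0.05 as reported, -0.45 with median centring, -0.83 with spike-in scaling and -0.80 on the 20 brightest.

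Counts of called probe sets for the 8 genes were 6 as reported, 3 with quantile normalization, 1 with the spike-in covariate, 0 with the 3'/5' index and 1 without the 4 krill arrays. With 1 value per gene, by the brightest probe set or the mean, fewer values were tested: the 8 genes gave 3 and 3, other hepatokines 21 and 18, carriers 19 and 18, partners 20 and 22, and all genes 5566 and 5573. With the spike-in covariate these were 10, 5, 9 and 3088, and with the 3'/5' index 0 for each list and 0 for all. Partners gave 22 without the 4 krill arrays. Leaving out 1 array gave 5 to 6 for the 8 genes, 28 to 34, 30 to 36 and 32 to 38 for the lists (hepatokines, carriers, partners) and 7777 to 10203 for all.

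Replicate numbers were not taken to pair the mice. Same-numbered arrays correlated between -0.02 and 0.09 in their deviations, and 3 of 14 arrays were closest to their own number. These values show little sign of pairing but cannot settle whether the design had one. With the replicate block, 6 probe sets of the 8 genes, 34 hepatokine, 32 carrier and 37 partner probe sets and 8669 in all were called. Precision is limited by 7 arrays per diet, and for the brightest genes by a possible ceiling.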
